A study of Arabidopsis thaliana with 4 samples.

Results

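The comparison described here set leaves labelled lbd16-2, a mutant of the transcription factor gene LBD16, against Col-0 wild-type leaves of Arabidopsis thaliana, both taken at day 0, before any time on callus inducing medium. RNA sequencing of total RNA was available as 1 library per genotype at day 0 and 1 per genotype after 4 days in the dark on that medium. The plants were 12 days old and had grown at 22 °C with 16 h of light and 8 h of dark, and the leaves were those of the first pair. The labels give no further allele, transgene or treatment for any group, and they state neither how many plants were pooled nor what kind of lesion lbd16-2 is. The genes compared were those with values in all 4 libraries whose normalised reads averaged at least 20 over the 2 day 0 libraries, where a normalised read count is the number of reads divided by the size factor of its library. This gave 558 of the 2175 genes with 4 values, out of 2773 genes listed anywhere in the deposited tables. Of these 558 genes, 376 were in the authors' lists for both genotypes (of 1657) and 182 in the wild-type list alone (of 518 with lbd16-2 values).

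LBD16 encodes a LOB-domain transcription factor that auxin induces through the response factors ARF7 and ARF19. It acts in the founder cells of lateral roots, and callus that forms on auxin-rich medium uses much of the same programme. In an intact young leaf the gene has no well-known role, so the leaves at day 0 give the baseline from which both genotypes started. The genes listed in the deposited tables are those whose level at day 4 was more than 8-fold that at day 0, and genes of photosynthesis and other steady leaf functions are therefore not among them.

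The day 0 leaves differed in genes on both sides of a general offset, with 19.7% of the compared genes more than 2-fold from it. The largest excesses in lbd16-2 leaves were in genes for a TRAF-like protein (AT5G26260), a GDSL-type lipase (AT1G54020), the protein phosphatase HAI2 and the lectin JAL23, and the highly expressed β-glucosidase gene PYK10 was also higher there. The lowest genes in lbd16-2 leaves relative to wild type were PAD3, which encodes the last enzyme of camalexin synthesis, the cell wall protein gene EXT4, the glutathione S-transferase gene GSTU4 and the defence gene PR4. Genes of mitosis lay together near the offset. Of 11 auxin response genes, 8 lay under it, as did the median of the genes in both lists, which held all 11.

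The offset itself was a higher level in the lbd16-2 library. Before any centring, 459 of the 558 genes (82.3%) had more normalised reads in lbd16-2 than in wild type, and the median ratio was 1.54, or 0.62 on the log2 scale. The median was 0.47 for the genes in both lists and 0.98 for those in the wild-type list alone. Differences below are therefore given either as the plain ratio of normalised reads (lbd16-2 over wild type, with its exact binomial 95% counting interval in parentheses) or as a centred difference. The centred difference is lbd16-2 minus wild type on the deposited log2 scale less the median of 0.62, so 0 stands for the typical gene.

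After centring, 55 genes (9.86%) were past 2-fold higher in lbd16-2 and 55 genes (9.86%) were past 2-fold lower, 19.7% in all. For each of these 110 genes the counting interval of the ratio excluded the median ratio, as it did for 258 of all 558 genes (46.2%). Past 4-fold there were 15 genes on the higher side and 12 on the lower side, and the middle 50% of all genes lay between -0.41 and 0.40. Without centring the split was 145 higher and 29 lower. Counting intervals cover counting error only and compare these libraries, not the genotypes, since there was 1 library per genotype and no replicate error could be had.

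The way the lists were made bears on these counts. Genes in both lists held 54 of the 55 lower genes and 17 of the 55 higher ones, while genes in the wild-type list alone held 38 of the higher genes and 1 of the lower ones, MIF1. A gene enters the wild-type list alone when its lbd16-2 increase is at most 8-fold, which a high lbd16-2 level at day 0 favours, and a low wild-type level at day 0 favours entry into the wild-type list. The 594 genes of the lbd16-2 list alone, which would stand on the other side, were not compared here. The part that this selection has in the offset and in the split was not tested.

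**Figure D1:**
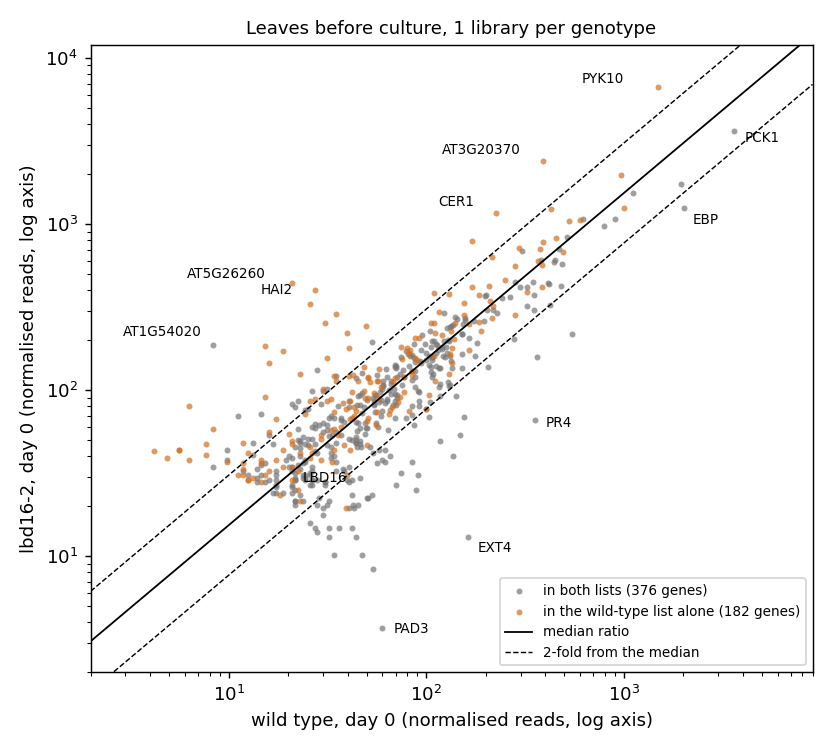
Normalised reads of the 558 genes at day 0, with wild type on the x axis and lbd16-2 on the y axis (both log axes), each point 1 gene. The solid line is the median ratio of 1.54 and the dashed lines lie 2-fold to either side; genes of the wild-type list alone (orange) make up 38 of the 55 genes past the upper limit, and genes of both lists (grey) make up 54 of the 55 past the lower one.

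Genes past 2-fold were a larger share of the genes with fewer than 100 normalised reads than of those above. They made up 26.2% of the 210 genes with a mean of 20 to 50 normalised reads and 20.5% of the 156 genes between 50 and 100. They made up 11.9% of the 143 genes between 100 and 300 and 12.2% of the 49 genes above 300. The minimum of 20 was passed by 63 genes that were under 20 in wild type and by 18 that were under 20 in lbd16-2. Of the genes past 2-fold, 26 of the higher ones and 18 of the lower ones were among these. Just inside the minimum lay AT1G67780, TAF14 and MEE25, with means of 20.4, 20.7 and 20.7 and centred differences of -0.12, 0.52 and 0.52. Just outside it lay AT1G29290, AT2G37070 and AT5G44440, with means of 19.995, 19.8 and 19.8 and centred differences of -3.60, 1.62 and 2.43.

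LBD16 (AT2G42430) had 34.3 normalised reads in lbd16-2 leaves and 20.9 in wild-type leaves at day 0, from 37 and 30 reads. The ratio was 1.64 (0.99 to 2.75) and the centred difference 0.07, so LBD16 stood with the typical gene and was not lower in the mutant library at this stage. At day 4 it had 518 normalised reads in lbd16-2 and 981 in wild type. A sum of reads over the whole gene cannot tell an intact transcript from a broken one, so these values do not check the genotype label, on which every direction given here rests. The nearest compared genes in the annotation's order were AT2G42110, 32 genes before LBD16, with a centred difference of 0.96, and TBL39, 17 genes after it, with -1.19.

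All 3 compared genes for TRAF-like proteins were past 2-fold higher, beside 9.86% of all compared genes. Of these, AT5G26260 and AT3G20370 were among the 12 highest. Their annotation names a domain shared with animal TRAF signalling adaptors. AT5G26260 had 438 normalised reads in lbd16-2 leaves and 20.9 in wild-type leaves, a ratio of 20.9 (14.5 to 31.4). AT3G20370 had 2375 in lbd16-2 and 389 in wild type, a ratio of 6.10 (5.57 to 6.70). AT5G26280, which lies 3 genes from AT5G26260 in the annotation's order, had 788 in lbd16-2 and 170 in wild type, a ratio of 4.65 (4.03 to 5.39). Their centred differences were 3.70, 1.99 and 1.59, and their summed level was 3602 normalised reads in lbd16-2 against 580 in wild type. All 3 were in the wild-type list alone. This family was chosen after its values were seen, and reads shared between its close copies make the single values uncertain.

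PYK10 (AT3G09260) had the highest mean level of all compared genes. It encodes a β-glucosidase that fills endoplasmic reticulum bodies of seedlings and roots and acts on glucosides when cells are damaged. It had 6705 normalised reads in lbd16-2 leaves and 1484 in wild-type leaves, a ratio of 4.52 (4.30 to 4.74) and a centred difference of 1.56. The gene took 6.98% of the reads of the compared genes in lbd16-2 and 2.42% in wild type. GSTU8, the next gene in the annotation's order, had 86.3 in lbd16-2 and 22.3 in wild type, a ratio of 3.86 (2.56 to 5.97).

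Jacalin-type lectins are sugar-binding proteins, and several of them are known from complexes with PYK10. Of 4 compared members of this family, also chosen after their values were seen, 2 were past 2-fold higher, beside 9.86% of all compared genes and 20.9% of those in the wild-type list alone, which held 2 of the 4. JAL23 had 327 normalised reads in lbd16-2 leaves and 25.8 in wild-type leaves, a ratio of 12.7 (9.03 to 18.3) and a centred difference of 3.00. JAL33 had 69.6 in lbd16-2 and 11.2 in wild type, a centred difference of 1.92, and passed the minimum through lbd16-2 alone. JAL22 lay within 2-fold of the offset, with 173 in lbd16-2 and 83.0 in wild type, and so did AT1G73040, with a centred difference of -0.59. A bulk library cannot tell a larger share of cells of a type from more RNA per cell, here or in any result below.

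AT1G54020, for a lipase of the GDSL type, was the gene of both lists that lay highest. It had 186 normalised reads in lbd16-2 leaves and 8.37 in wild-type leaves, a ratio of 22.2 (12.4 to 43.6), from 12 reads in wild type. HAI2, a protein phosphatase that abscisic acid induces and that dampens its signal, had 399 in lbd16-2 and 27.2 in wild type, a ratio of 14.7 (10.6 to 20.9) and a centred difference of 3.21. The only other compared gene of the list for abscisic acid, drought and cold, KIN1, stood at the offset with 69.6 in lbd16-2 and 43.3 in wild type. RCI2B, a small membrane protein gene that responds to cold and salt, had 243 in lbd16-2 and 49.5 in wild type, a centred difference of 1.65. TSPO, for a membrane protein that abscisic acid induces, had 40.8 in lbd16-2 and 7.67 in wild type, also 1.65. It neighbours AT2G47780, annotated as a rubber elongation factor protein, which had 286 in lbd16-2 and 34.9 in wild type, a centred difference of 2.38.

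MC9, a metacaspase that clears dying xylem vessel cells, had 184 normalised reads in lbd16-2 leaves and 15.3 in wild-type leaves, a ratio of 12.0 (7.68 to 19.5). ACS4 encodes an enzyme that makes the precursor of ethylene, and it had 146 in lbd16-2 and 16.0 in wild type, a ratio of 9.08 (5.84 to 14.7). The gene for ACC oxidase ACO1, which converts this precursor to ethylene, lay on the other side with 43.6 in lbd16-2 and 57.9 in wild type, a centred difference of -1.02. Tic20-IV, for a subunit of a protein import channel of the chloroplast envelope, had 254 in lbd16-2 and 30.7 in wild type, a centred difference of 2.39. AT5G40800, an uncharacterised gene, had 90.9 in lbd16-2 and 15.3 in wild type, a centred difference of 1.87.

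**Figure D2:**
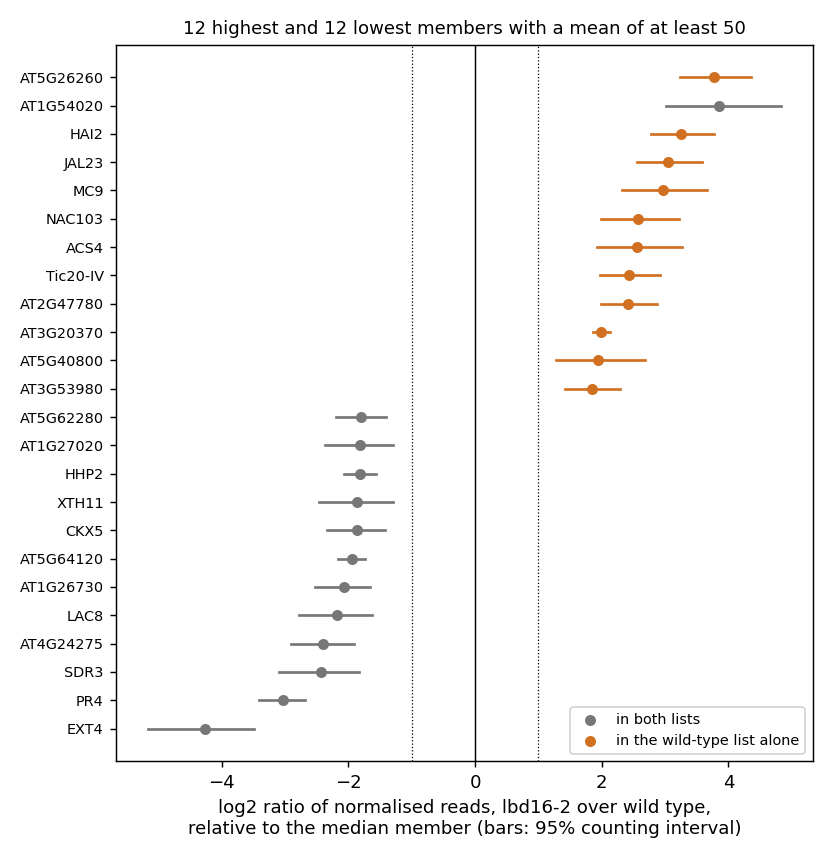
Log2 ratio of normalised reads at day 0, lbd16-2 over wild type relative to the median gene, for the 12 highest and the 12 lowest genes among those whose mean level was at least 50; bars are 95% counting intervals and dotted lines mark 2-fold. Of the 12 highest, AT1G54020 is the gene of both lists (grey), and all 12 lowest are of both lists.

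NAC-domain transcription factor genes, a family chosen after its values were seen, numbered 7 among the compared genes, with 4 past 2-fold higher and 0 lower, beside 9.86% of all compared genes in each direction. Of the 7, the wild-type list alone held 4, and 20.9% of its compared genes were past 2-fold higher and 0.549% lower. NAC103, known from the response to unfolded proteins, had 173 normalised reads in lbd16-2 leaves and 18.8 in wild-type leaves, a ratio of 9.16 (6.10 to 14.3). NAC044, known from the DNA damage response, had 47.3 in lbd16-2 and 7.67 in wild type, a centred difference of 1.86. NAC3 (also ANAC055) and NAC019 act in jasmonate and abscisic acid responses. NAC3 had 66.8 in lbd16-2 and 17.44 in wild type, and NAC019 had 101 in lbd16-2 and 31.4 in wild type, centred differences of 1.26 and 1.04. Of the 4 past 2-fold higher, NAC103, NAC044 and NAC3 were under the minimum in wild type and passed it through lbd16-2 alone. Their count therefore owes part of its size to the minimum. NAC092, a regulator of leaf senescence, lay within 2-fold at -0.42.

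Genes for lipid transfer proteins, small secreted proteins that carry lipids to the cell surface, were past 2-fold higher in 4 of 8 compared members and lower in 0, beside 9.86% of all genes in each direction. AT3G53980 had 220 normalised reads in lbd16-2 leaves and 39.8 in wild-type leaves, a ratio of 5.53 (4.12 to 7.52). AT2G37870 had 98.3 in lbd16-2 and 26.5 in wild type, AT5G05960 had 122 in lbd16-2 and 34.9 in wild type, and AT4G33550 had 98.3 in lbd16-2 and 30.0 in wild type, with centred differences of 1.23, 1.15 and 1.06. LTP2 was at the other end of the list with 77.0 in lbd16-2 and 99.1 in wild type, a centred difference of -0.98. The list's median centred difference was 0.61. It held 139 genes, of which 27 had values in all 4 libraries, and 11 of those 27 had 0 reads in both day 0 libraries.

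Among 5 compared genes of cuticle wax, cutin and suberin, CER1 was past 2-fold higher and CYP86A4 past 2-fold lower. Of all compared genes, 9.86% were past 2-fold in each direction. CER1, an enzyme that makes the alkanes of leaf wax, had 1160.4 normalised reads in lbd16-2 leaves and 226 in wild-type leaves, a ratio of 5.13 (4.54 to 5.82) and a centred difference of 1.74. CYP86A4, a fatty acid hydroxylase of cutin synthesis, had 15.8 in lbd16-2 and 25.8 in wild type, a centred difference of -1.296. The suberin genes ASFT (112 in lbd16-2 and 51.6 in wild type) and FAR1 (462 in lbd16-2 and 251 in wild type) lay at 0.49 and 0.26. DCR, an acyltransferase of cutin synthesis, lay at -0.73. The epidermis marker PDF1 had 715 normalised reads in lbd16-2 and 294 in wild type, a centred difference of 0.66, and its part in the wax and lipid transfer values was not tested. Of 15 trichome and epidermis markers, 2 had values. The other, CPC, was under the minimum, with 16.7 in lbd16-2 and 11.2 in wild type.

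Extensins are structural glycoproteins that strengthen the cell wall, and both compared members were lower in lbd16-2 leaves. EXT4 had 13.0 normalised reads in lbd16-2 and 163 in wild type, a ratio of 0.08 (0.04 to 0.14) and a centred difference of -4.17. EXT3 had 10.2 in lbd16-2 and 34.2 in wild type, a centred difference of -2.27. This pair was chosen after its values were seen, and repeats shared by extensins can exchange reads between them. The pair was in both authors' lists, where 14.4% of compared genes were past 2-fold lower. Genes for some enzymes that act in the wall, singled out after their values were seen, lay on the same side. XTH11 and XTH19 cut and rejoin xyloglucan chains. XTH11 had 31.5 in lbd16-2 and 74.7 in wild type (-1.84 centred), and XTH19 had 13.0 in lbd16-2 and 32.1 in wild type (-1.86). LAC8, a laccase, had 30.6 in lbd16-2 and 90.7 in wild type (-2.16), and PME2, a pectin methylesterase, had 14.8 in lbd16-2 and 36.3 in wild type (-1.85). XTH19 and PME2 also passed the minimum through wild type alone. EXPA4, a wall-loosening expansin at a high level, stood near the offset with 1531 in lbd16-2 and 1111 in wild type. The list of cell wall loosening genes had 3 compared members, XTH19, XTH15 (-0.85) and EXPA4 (-0.16). Of them, 1 was past 2-fold lower and 0 higher, beside 9.86% of all compared genes in each direction.

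PAD3 had the lowest centred difference of all compared genes. The gene encodes the cytochrome P450 that completes the phytoalexin camalexin, and it had 3.71 normalised reads in lbd16-2 leaves, which were 4 reads, and 60.001 in wild-type leaves, a ratio of 0.06 (0.02 to 0.16) and a centred difference of -4.31. It was the only compared gene of the list for salicylate, camalexin and pathogen defence, of which 5 of 27 genes had values. PR4, a chitin-binding pathogenesis-related protein that ethylene and jasmonate induce, had 65.9 in lbd16-2 and 353 in wild type, a ratio of 0.19 (0.14 to 0.24). HCHIB, a basic chitinase, had 14.8 in lbd16-2 and 27.2 in wild type, a centred difference of -1.45. The peroxidase gene AT5G64120 had 218 in lbd16-2 and 546 in wild type, a ratio of 0.40 (0.34 to 0.46). It was the 1 of 4 compared class III peroxidase genes past 2-fold, beside 19.7% of all compared genes. AT3G32980 lay above the offset with 119 in lbd16-2 and 44.0 in wild type, a centred difference of 0.79.

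Glutathione S-transferases, which conjugate glutathione to reactive compounds, went both ways, with 1 of 5 compared members past 2-fold higher and 2 lower. All 5 were in both lists, where 4.52% of compared genes were past 2-fold higher and 14.4% lower. GSTU4 had 8.35 normalised reads in lbd16-2 leaves and 53.7 in wild-type leaves, a ratio of 0.16 (0.07 to 0.31). GSTU6, 3 genes away from GSTU4, had 27.8 in lbd16-2 and 40.5 in wild type, a centred difference of -1.14, and GSTU8 was the higher one. Of 8 compared cytochrome P450 genes, a family chosen after its values were seen, 3 were past 2-fold lower and 1 higher, beside 9.86% of all compared genes in each direction. Of the 8, 7 were in both lists, where 14.4% of genes were past 2-fold lower. CYP71B23 had 26.9 in lbd16-2 and 70.5 in wild type, a centred difference of -1.98. PAD3 and CYP86A4, also past 2-fold lower, passed the minimum through wild type alone. The higher one was ROT3, an enzyme of brassinosteroid synthesis that promotes leaf length, with 178 in lbd16-2 and 40.5 in wild type, a ratio of 4.40 (3.27 to 6.01).

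**Figure D3:**
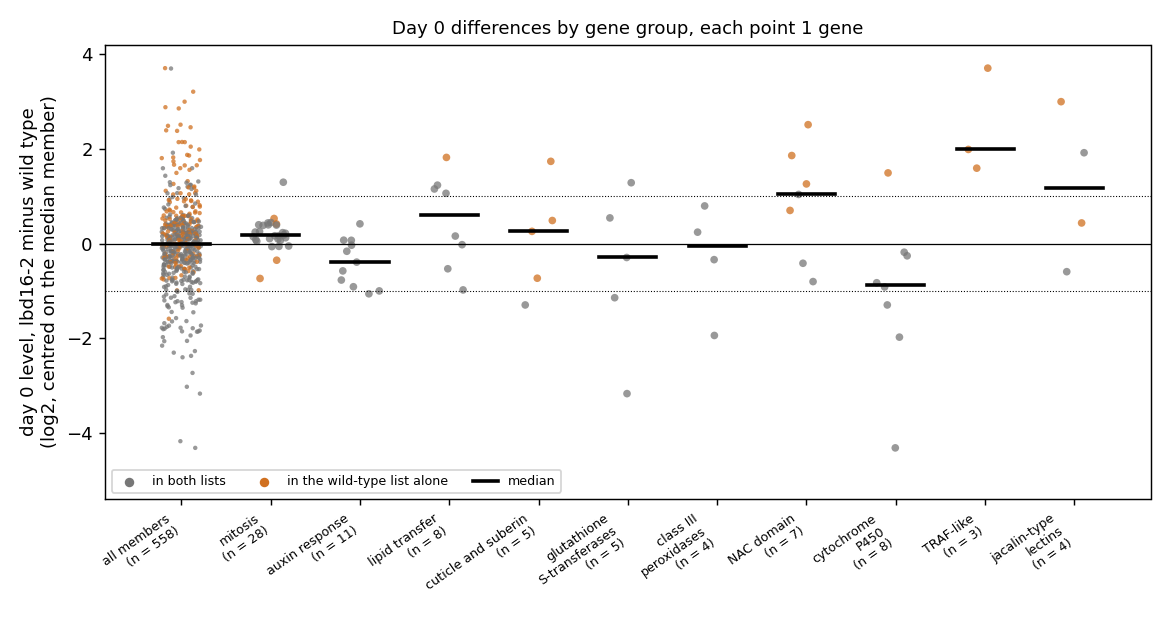
Centred day 0 difference (log2, lbd16-2 minus wild type) of every compared gene and of gene groups, each point 1 gene, black bars the medians and dotted lines 2-fold. The 3 TRAF-like genes lie between 1.59 and 3.70, and 27 of 28 mitotic genes lie within 2-fold, beside 448 of all 558 genes. The 4 rightmost groups were chosen after their values were seen.

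Most auxin response genes lay under the offset. The list of Aux/IAA, GH3 and LBD genes had 11 compared members, all in both authors' lists, with 3 above the median gene and 8 under it. Of the 11, 1 was past 2-fold lower and 0 higher, beside 9.86% of all compared genes in each direction. Within both lists 14.4% of compared genes were past 2-fold lower and 4.52% higher, so this count does not set the auxin genes apart. The median centred difference was -0.39. Before centring the median was 0.23 and 7 of the 11 were higher in lbd16-2, so the side of this list depends on the centring. IAA19, an Aux/IAA repressor that auxin induces quickly in growing organs, had 203 normalised reads in lbd16-2 leaves and 276 in wild-type leaves, a ratio of 0.74 (0.62 to 0.87). GH3.5 had 326 in lbd16-2 and 424 in wild type, a ratio of 0.77 (0.67 to 0.88), GH3.17 had 106 in lbd16-2 and 130 in wild type, and GH3.6 had 105 in lbd16-2 and 117 in wild type. These 3 enzymes conjugate auxin to amino acids, and their centred differences of -0.999, -0.91 and -0.77 stayed within 2-fold. IAA5 was at the other end, with 48.2 in lbd16-2 and 23.0 in wild type, a centred difference of 0.42. Summed over the 11 members the level was 1034 normalised reads in lbd16-2 and 1155 in wild type.

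Other hormone and regulatory genes were found on the lower side. CKX5, a cytokinin-degrading enzyme, had 49.2 normalised reads in lbd16-2 leaves and 117 in wild-type leaves, a ratio of 0.42 (0.30 to 0.57). EBP, an ethylene response factor gene at a high level, had 1250.3 in lbd16-2 and 2008 in wild type, a ratio of 0.62 (0.58 to 0.66). WRKY23, a factor that acts downstream of auxin in roots, had 91.8 in lbd16-2 and 142 in wild type, a centred difference of -1.24. It was the 1 of 4 compared WRKY genes past 2-fold, beside 19.7% of all compared genes. LBD41, a low-oxygen gene, had 36.2 in lbd16-2 and 56.5 in wild type, at -1.25, while the low-oxygen genes ETR2 and ADH1 lay at -0.38 and -0.23. HHP2, a membrane protein of the adiponectin receptor family, had 159 in lbd16-2 and 363 in wild type, a ratio of 0.44 (0.37 to 0.52). HDG7, a homeodomain gene of the GLABRA2 family, had 13.0 in lbd16-2 and 44.0 in wild type, at -2.30. RGF5, a root meristem growth factor peptide gene, had 23.2 in lbd16-2 and 41.9 in wild type, at -1.44.

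The remaining genes among the 12 lowest were less well characterised. SDR3, a short-chain dehydrogenase gene, had 25.04 normalised reads in lbd16-2 leaves and 88.6 in wild-type leaves, a centred difference of -2.40. AT4G24275 had 39.9 in lbd16-2 and 137 in wild type, at -2.37. AT1G26730, annotated with an EXS domain, had 53.8 in lbd16-2 and 148 in wild type, at -2.06. AT1G27020 and AT5G62280, of unknown function, lay at -1.80 and -1.79.

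Genes of mitosis lay close together. Of 35 genes on the list, 30 had values in all 4 libraries and 28 were compared. All but IQD18 had a higher level in lbd16-2 leaves before centring, with a median difference of 0.79. After centring 23 lay above the median gene and 5 under it, the median was 0.17 and the middle 50% lay between 0.08 and 0.39. The counting interval of the ratio excluded the median ratio for 6 of the 28, beside 258 of all 558 compared genes (46.2%). CYCB2;1, a B-type cyclin of mitotic entry, was the 1 gene past 2-fold, with 34.3 normalised reads in lbd16-2 and 8.37 in wild type, a ratio of 4.099 (2.09 to 8.63), and 0 genes were past 2-fold lower. Of all compared genes, 9.86% were past 2-fold in each direction. CYCA1;1, an A-type cyclin, had 179 in lbd16-2 and 80.2 in wild type, a centred difference of 0.53. CDKB1;2, a mitotic cyclin-dependent kinase, had 49.2 in lbd16-2 and 23.0 in wild type, at 0.44. CYCB1;2 had 245 in lbd16-2 and 137 in wild type, at 0.22. IQD18, a calmodulin-binding scaffold protein gene, had the lowest value of the list with 75.1 in lbd16-2 and 81.6 in wild type, at -0.74. The 28 genes summed to 4189 normalised reads in lbd16-2 and 2407 in wild type. Reads of CDC20.1 and CDC20.2, which are near copies, cannot be assigned with certainty.

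Plant mitotic genes are known to be activated together by MYB3R factors that bind a short promoter element with the core AACGG. The 250 bases before the start of each gene were searched for it on both strands (read as CCGTT on the other), in the RefSeq annotation of TAIR10.1. The core was found before 16 of the 28 mitotic genes (57.1%), 155 of 554 compared protein-coding genes (28.0%) and 5645 of all 27443 protein-coding genes (20.6%). Of the mitotic genes, 6 had 3 or more matches. The windows of the gene past 2-fold, of the gene with most matches and of the lowest gene of the list are shown to place these matches. Each runs 5′ to 3′ on the strand of the gene up to its start, and matches are in capitals.
CYCB2;1 (chr2:7663805-7664054, plus strand): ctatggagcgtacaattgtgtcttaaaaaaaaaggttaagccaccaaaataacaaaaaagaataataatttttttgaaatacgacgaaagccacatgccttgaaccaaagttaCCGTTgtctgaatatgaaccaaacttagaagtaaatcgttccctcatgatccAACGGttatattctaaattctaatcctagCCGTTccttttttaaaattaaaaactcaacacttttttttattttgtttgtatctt
CYCB1;2 (chr5:1861704-1861953, minus strand): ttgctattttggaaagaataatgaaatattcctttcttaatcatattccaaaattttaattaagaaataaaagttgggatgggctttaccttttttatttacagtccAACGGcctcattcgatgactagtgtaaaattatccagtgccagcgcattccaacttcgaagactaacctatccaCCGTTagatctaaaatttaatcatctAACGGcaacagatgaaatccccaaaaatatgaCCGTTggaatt
IQD18 (chr1:51703-51952, plus strand): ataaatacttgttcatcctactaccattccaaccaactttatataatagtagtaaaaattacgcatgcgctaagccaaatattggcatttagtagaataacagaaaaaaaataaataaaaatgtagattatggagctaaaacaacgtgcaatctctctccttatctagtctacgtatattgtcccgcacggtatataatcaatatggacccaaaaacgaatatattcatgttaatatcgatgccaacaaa
CYCB2;1 holds 3 matches, CYCB1;2 holds 4 and IQD18 holds 0. The median centred difference was 0.20 for the 16 mitotic genes with a match and 0.11 for the 12 without, a difference that is small beside the spread of either set, from -0.05 to 1.295 with a match and from -0.74 to 0.44 without.

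The core AACGG was found before 12 of the 55 higher genes (21.8%) and 8 of the 55 lower genes (14.5%). The W box core TTGAC, which WRKY factors bind, was found before 22 of the 55 higher genes and 28 of the 55 lower ones (50.9%), against 44.9% of all genes. The G box CACGTG was found before 6 of the higher genes (10.9%) and 4 of the lower ones (7.27%), against 6.49% of all genes and 10.1% of the compared ones. It stood before 4 of the 11 auxin response genes (36.4%). GCGGCG, a sequence that LOB-domain proteins bind, was found before 2 of the higher genes (3.64%) and 0 of the lower ones, against 1.56% of all genes and 1.44% of the compared ones. A match is a run of letters in this window and does not show that a factor binds there.

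The 8 genes with the highest mean level lay on both sides of the offset, with PYK10 and AT3G20370 past 2-fold higher and EBP past 2-fold lower. Apart from PYK10, AT3G20370, EXPA4 and EBP, these were PCK1, PHB, scpl48 and AT5G19440. PCK1, an enzyme of gluconeogenesis, had 3614 normalised reads in lbd16-2 leaves and 3612 in wild-type leaves, a ratio of 1.00 and a centred difference of -0.62. PHB, a homeodomain factor of the upper leaf side, had 1737 in lbd16-2 and 1947 in wild type, at -0.78. The serine carboxypeptidase-like gene scpl48 had 1973 in lbd16-2 and 968 in wild type, at 0.41. AT5G19440 had 1254 in lbd16-2 and 1004 in wild type, at -0.30.

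Most genes past 2-fold at day 0 were not past 2-fold on the same side at day 4. The 55 genes past 2-fold higher at day 0 had a median centred difference of -0.11 at day 4, with 5 past 2-fold higher and 11 lower, against 5.91% higher and 12.7% lower (18.6% in all) of the 558 genes. The 55 genes past 2-fold lower at day 0 had a median of -0.12 at day 4, with 4 past 2-fold higher and 11 lower. The day 4 shares differed by list. In both lists, which held 54 of these 55, 30 of 376 genes were past 2-fold higher at day 4 and 20 lower. In the wild-type list alone 3 of 182 were higher and 51 lower. Of the genes higher at day 0, the 17 of both lists had 3 higher at day 4 and 2 lower. The 38 of the wild-type list alone had 2 higher and 9 lower. Across the 558 genes the rank correlation of the day 0 and day 4 differences was 0.03, which became 0.24 within the genes of both lists and 0.13 within those of the wild-type list alone. These are descriptions across genes, which are not replicates. The differences at day 0 and day 4 share no library, but every gene entered by its increase between those days, so its day 0 level took part in its selection. The median increase from day 0 to day 4 of the 55 higher genes was 4.78-fold in lbd16-2 and 23.4-fold in wild type, and that of the 55 lower genes was 29.2-fold in lbd16-2 and 14.2-fold in wild type. Over all 558 genes it was 11.1-fold in lbd16-2 and 16.3-fold in wild type. These increases divide by the day 0 levels that defined both sets, so their order is no separate result.

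**Figure D4:**
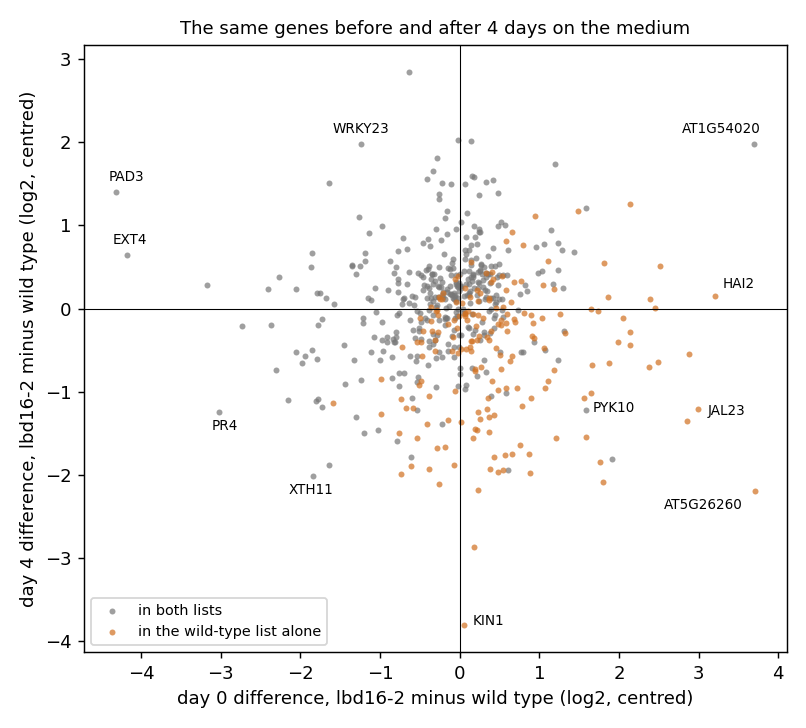
Centred difference between lbd16-2 and wild type at day 0 (x axis) and at day 4 (y axis) on the log2 scale, each point 1 of the 558 genes. AT1G54020 is past 2-fold higher at both days, PR4 and XTH11 are past 2-fold lower at both, and EXT4 and PAD3, far left at day 0, lie above 0 at day 4.

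Several genes had opposite differences at the 2 days. AT5G26260 reached 2011 normalised reads in lbd16-2 and 8894 in wild type at day 4, a centred difference of -2.19. PYK10 reached 13647 in lbd16-2 and 27820.3 in wild type, at -1.07. JAL23 had 112 in lbd16-2 and 252 in wild type, at -1.21, so its level in lbd16-2 was lower at day 4 than the 327 of day 0. On the other side, PAD3 reached 2146 in lbd16-2 and 788 in wild type, at 1.401, and WRKY23 reached 8617 in lbd16-2 and 2126 in wild type, at 1.98. EXT4 reached 9480.4 in lbd16-2 and 5900 in wild type, at 0.64.

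Other genes kept their side. AT1G54020 had 2219.8 normalised reads in lbd16-2 and 546 in wild type at day 4, at 1.98. PR4 had 4160.3 in lbd16-2 and 9531 in wild type, at -1.24, and XTH11 had 675 in lbd16-2 and 2639 in wild type, at -2.01. HAI2 and CER1, both far above the offset at day 0, were close to 0 at day 4, with centred differences of 0.16 and -0.03. The mitotic genes had a median of 0.20 at day 4 and the auxin response genes 0.19. KIN1, a cold-induced gene at the offset on day 0, had the lowest day 4 value in the plot, with 42.8 normalised reads in lbd16-2 and 590.1 in wild type, at -3.80.

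**Figure D5:**
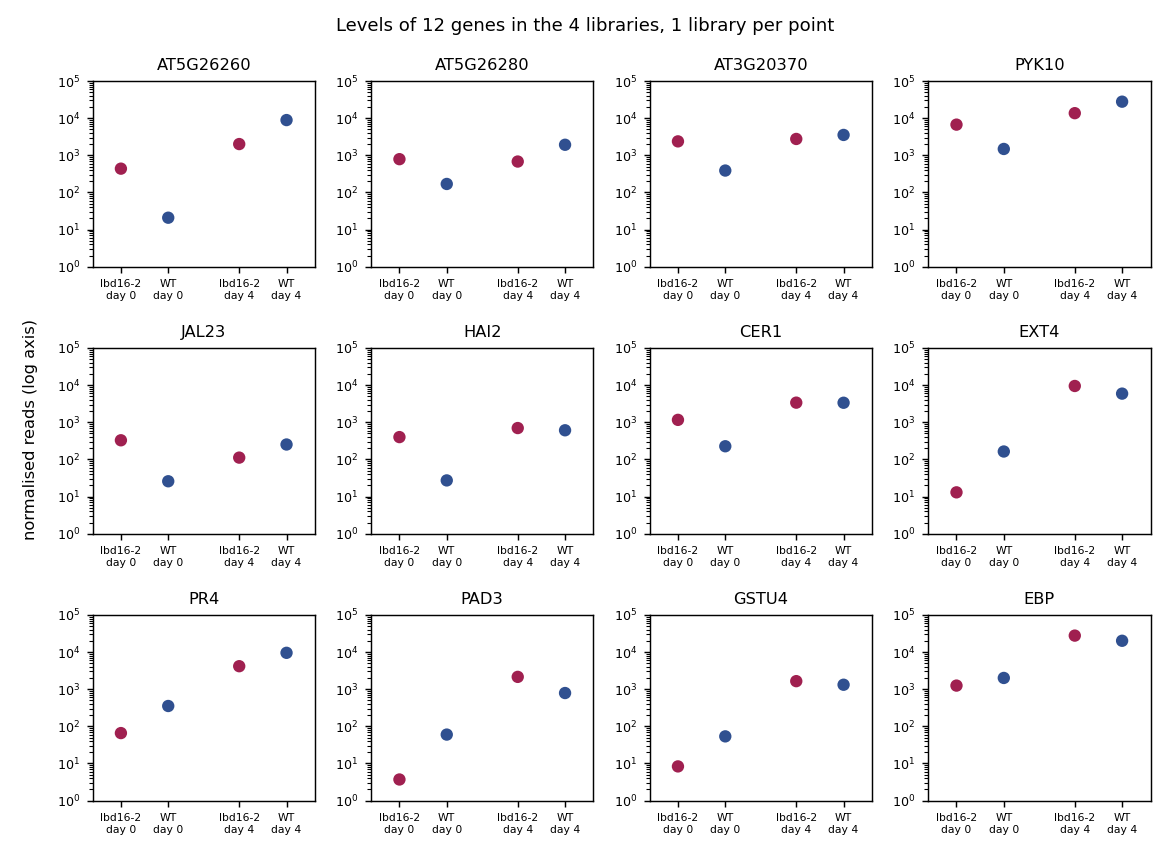
Normalised reads (log axis) of 12 genes in the 4 libraries, lbd16-2 (red) left of wild type (blue) at day 0 and at day 4, 1 library per point. The 7 genes from AT5G26260 to CER1 are higher in lbd16-2 at day 0 and the 5 genes from EXT4 to EBP are lower there, while at day 4 AT5G26260, AT5G26280, AT3G20370, PYK10 and JAL23 are lower in lbd16-2.

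Marker genes gave little to judge the tissue by. None of the 14 mesophyll photosynthesis markers, 15 stomatal markers and 17 vascular markers had values, so the leaf label was not checked against them. Of 21 markers of root cap, root epidermis and endodermis 10 had values, summing to 117 normalised reads in lbd16-2 leaves and 56.5 in wild-type leaves, nearly all from ASFT. FEZ, GPAT5, CYP86A1, RHD6 and BRN2 had 0 reads in both libraries. These markers entered the tables by an increase over 8-fold, which favours a low count at day 0. Of 21 root primordium markers 16 had values, summing to 211 in lbd16-2 and 133 in wild type, mostly from PLT3 (145 in lbd16-2 and 93.5 in wild type) and LBD16, with AHP6, WOX7 and LBD17 at 0 reads in both. Of 15 shoot apex markers 5 had values, summing to 31.5 in lbd16-2 and 11.9 in wild type, mostly from KNAT6 (27.8 in lbd16-2 and 9.07 in wild type), and STM had 0 reads in both. A sum from so few reads limits what can be said of other cell types, and their part in the results was not tested.

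The other lists had few compared members. The wound, ethylene response factor and jasmonate list had JAZ10 at -0.18 and ERF113 at 0.18. The senescence list had NAC092 at -0.42 and WRKY6 at 0.26, and the transport list had NAS1 at 0.45 and SWEET15 at -0.02. GIF1, a growth coactivator of young leaves, had 53.8 normalised reads in lbd16-2 leaves and 29.3 in wild-type leaves, at 0.24. FIB2, a fibrillarin of ribosome biogenesis, had 1062 in lbd16-2 and 601 in wild type, at 0.20. The lists for DNA replication, heat shock, glucosinolates and flavonoids, and mitochondrial stress had 0 compared members. All 10 compared kinesin genes, a family chosen after its values were seen, lay within 2-fold, with a median of 0.03. So did 448 of all 558 compared genes. Of 4 compared SAUR genes, small auxin-induced genes of cell expansion, 2 were past 2-fold higher and 1 lower. Of all compared genes, 9.86% were past 2-fold in each direction. The SAUR family was also chosen after its values were seen. The wild-type list alone held both higher members, AT2G18010 and AT1G29460, and 20.9% of its compared genes were past 2-fold higher. The lower member, SAUR23, belonged to both lists, and 14.4% of their compared genes were past 2-fold lower. AT2G18010 had 42.7 in lbd16-2 and 4.19 in wild type, and so passed the minimum of 20 through lbd16-2 alone. SAUR23 had 39.9 in lbd16-2 and 65.6 in wild type.

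Of the 558 genes, 132 overlap another annotated gene, among them 20 of the 110 past 2-fold, such as PYK10, HHP2, CKX5, LAC8 and AT2G47780. The sources used here do not say whether reads were counted by strand, so reads of these genes and their overlapping partners cannot be told apart. The genes past 2-fold were spread over the genome, with 13 higher and 13 lower of 152 on chromosome 1, 13 and 9 of 90 on chromosome 2, 11 and 13 of 111 on chromosome 3, 5 and 9 of 89 on chromosome 4, and 13 and 11 of 116 on chromosome 5.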

How the data were processed

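RNA sequencing of total RNA from 4 libraries, 1 per genotype and day, was used. The submitters' processing notes name the TAIR10 genome with STAR, Cufflinks, DESeq, FastQC and Trim Galore, without versions, settings or the use of strand. The authors deposited levels on a log2 scale, which behave as the logarithm of 1 plus the reads over a size factor, a form inferred from the values: whole reads were recovered for 100% of values within 0.001 reads. The size factors were 1.08 (lbd16-2 day 0), 1.43 (wild type day 0), 1.68 (lbd16-2 day 4) and 1.41 (wild type day 4). The p-value and FDR columns and the linear fold ratio of the authors' deposited tables were not used. Total depth is unknown, since only listed genes are in the tables. The 558 genes compared held 103568 reads in lbd16-2 and 87982 in wild type at day 0.

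Normalised reads, ratios with exact binomial 95% counting intervals, and differences of the deposited levels, centred on their median, were computed in Python 3.11.15 with numpy 2.4.6, pandas 2.3.3 and scipy 1.17.1. A difference was counted as past 2-fold when it was beyond 1 on the centred log2 scale. No p-value was computed, because each group had 1 library. The steps were tested on simulated data. Genes named were LBD16, the 12 highest and 12 lowest with a mean of at least 50, the 8 with the highest mean level, up to 4 members per list and those nearest the minimum; 1 gene under this rule is left out. Other named genes and 7 families were chosen after their values were seen. The comparison, its members and the gene lists were chosen with earlier results of these data known. Names and promoter windows were taken from RefSeq for TAIR10.1, matched by locus identifier. Its coordinates belong to that release, and the deposited tables hold none. A few list symbols had no match. Alternatives covered the minimum level, the centring, the pseudocount, thinning of reads and the fold limit.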

Additional observations from a re-analysis of the deposited data

How the results depend on the processing

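The counts of 55 higher and 55 lower genes moved with the limits. A minimum mean of 50 gave 32 and 25, a minimum of 100 gave 14 and 9, and no minimum gave 355 and 191 of 2175, of which 500 had 0 reads in both libraries and which were centred on 0.13 in place of 0.62. Without centring there were 145 and 29. With genes of both lists alone, centred again, 20 were higher and 46 lower, and with the wild-type list alone 27 were higher and 8 lower. A 1.5-fold limit gave 93 and 105, and a 4-fold limit 15 and 12. The other alternatives (a minimum of 10, centring on the genes of both lists or on summed reads, pseudocounts of 0.1 and 5, thinning, and the counting interval as a second limit) kept both counts within 1.5 times. The uncentred median of 0.62 was 0.47 in the genes of both lists and 0.98 in the wild-type list alone.

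The mitosis median of 0.17 became 0.79 without centring. The auxin response median of -0.39 became 0.23 without centring. Taking all genes without a minimum also lowered the centre to 0.13, and the mitosis and auxin medians then became 0.68 and 0.094. With the centre kept at 0.62, a setting added after seeing the data, they were 0.20 and -0.39, so these moves came from the centre. The cuticle median of 0.26 became -1.14 in the genes of both lists, which leaves CYP86A4. The glutathione S-transferase median of -0.29 became 0.32 without centring, 0.12 without a minimum (-0.36 with the centre kept) and 0.49 at a minimum of 50, which leaves 3 genes. Without a minimum the cuticle and lipid transfer medians of 0.26 and 0.61 both became -0.13, which is the value of a gene with equal levels, here 0 reads in both libraries for 5 of 17 and 11 of 27 genes. It is no measured difference of either list. Of 75 named genes, 40 were past 2-fold, and 0 of these changed sign under centring on the genes of both lists, no centring, either pseudocount or thinning. Among the others 10 changed sign without centring, 1 when centred on the genes of both lists and 3 with thinned reads. Of all 75, 49 moved past their counting interval without centring and 9 did so when centred on the genes of both lists.

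No paired analysis was possible because each group had 1 library, and leaving out a library was not run for the same reason. The lists hold genes that increased over 8-fold, so the values do not extend to other genes, and the 1 library per genotype leaves plant-to-plant spread unmeasured.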
